A study of Caenorhabditis remanei with 48 samples.

Results

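The 200 gene rows with the highest median level over 48 libraries of first-stage (L1) larvae of *Caenorhabditis remanei* were taken as the most abundant transcripts. They were 200 of 24723 gene rows, or 0.809%. Levels are CPM, counts scaled to a common library size with the trimmed mean of M values (TMM), which sets the typical gene equal between libraries. Membership therefore rests on level, so levels and shares are given as descriptions without a test. CPM is not corrected for gene length, and long transcripts collect more reads than short ones at equal abundance.

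*C. remanei* is a relative of *C. elegans* with males and females. In the related *C. elegans*, L1 larvae that hatch without food stop developing until they feed, and heat makes many genes of the stress response produce more transcript. In a bulk library the reads are a fixed budget. When abundant transcripts take more of it, every other gene receives fewer reads, which a scaling factor is meant to offset. The deposited identifiers pair with no gene names or products, so nothing is said here of what single members do.

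Libraries were made from 3 populations. The ancestor was PX443, and a control-selected and a heat-selected line, 1 of each, had been derived from it. Parental worms were kept at 20 or 30 °C, and larvae were kept at 20 or 30 °C for 20 h in buffer without food after bleaching of the adults. Every population had 6 libraries per larval temperature from parents at 20 °C and 2 from parents at 30 °C. About 100000 individuals that passed a 20-micron filter were pooled per replicate, and polyadenylated RNA was sequenced. Worms were grown with OP50 bacteria on NGM-lite plates. By the labels, ancestor libraries came in batch A or B, control-selected ones in C or D and heat-selected ones in E or F. Heated parents occur in A, C and E alone.

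Counts in genes ran from 1986767 to 12717722 per library, and a member had 498 to 176711 counts (median 7371.5), so counting error was small beside the differences described. Replicates of a group differed by more than sampling noise in every pair (chi-square per gene at least 2.68). The labels do not say that replicates were separate cultures, and p-values then measure only the spread between these samples. At 30 °C from unheated parents, replicates 1 and 2, 3 and 4, and 5 and 6 were closest. Within these pairs the chi-square per gene was at most 13.8 (ancestor), 19.2 (control-selected) and 9.22 (heat-selected). Between pairs it was at least 19.9, 23.6 and 32.2. The tests took all 6 libraries as independent, so their p-values may be too small. In RNA of whole larvae, fewer cells of a type and less RNA per cell cannot be told apart.

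The 200 transcripts took 29 to 53.2% of the counts in genes, a 1.84-fold range with a median of 44.9%. The 10 most abundant took 4.31 to 9.5% (median 7.91%) and the first 50 took 12.6 to 26.6%. The next 200 genes by rank took 10.7 to 12.5%. The share of these next 200 ranks varied little beside that of the first 200.

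CRE31473 had the highest median level, 17300 CPM, and ranged from 5590 to 29800 CPM. It made up 0.746 to 2.25% of the counts by itself, and it stood among the first 200 in all 48 libraries. The members with the next medians were CRE20767 (11900 CPM), CRE20182 (8800), CRE13375 (6980) and CRE21184 (6210). CRE01941 followed at 6190 CPM, then CRE04842 at 5400, CRE08306 at 5380, CRE29320 at 5350 and CRE03888 at 5060. At the edge of the choice, CRE03876 (837 CPM) and CRE14047 (824 CPM) were inside and CRE07783 (822 CPM) and CRE07670 (804 CPM) were outside, so the boundary is not a gap.

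Membership was broad rather than strict. Of the 200, 78 were among the first 200 of every library, 137 of at least 40 libraries and 11 of fewer than 24. A single library shared 127 to 189 of its own first 200 with the members (median 174). Taken by group medians, 105 members were in the first 200 of all 12 groups, and 127 other genes entered the first 200 of at least 1 group.

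The groups differed in how many outsiders they held. In larvae of unheated parents at 20 °C the group's own first 200 held 182 members (ancestor), 181 (control-selected) and 189 (heat-selected). At 30 °C they held 178, 183 and 174. The lowest number, 143, was in ancestor larvae at 30 °C from heated parents, followed by 157 in ancestor larvae at 20 °C from heated parents. Both groups lie in batch A. Each group of heated parents gave 2 of the 48 libraries that set membership, against 6 for the others. Its median also rests on 2 libraries, so a lower number there follows in part from the rule. CRE_PX356_1986, at rank 2172 over all libraries, reached a median of 14500 CPM in ancestor larvae at 30 °C from heated parents. CRE18322, at rank 678, reached 11800 CPM in heat-selected larvae at 30 °C from unheated parents.

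**Figure D1:**
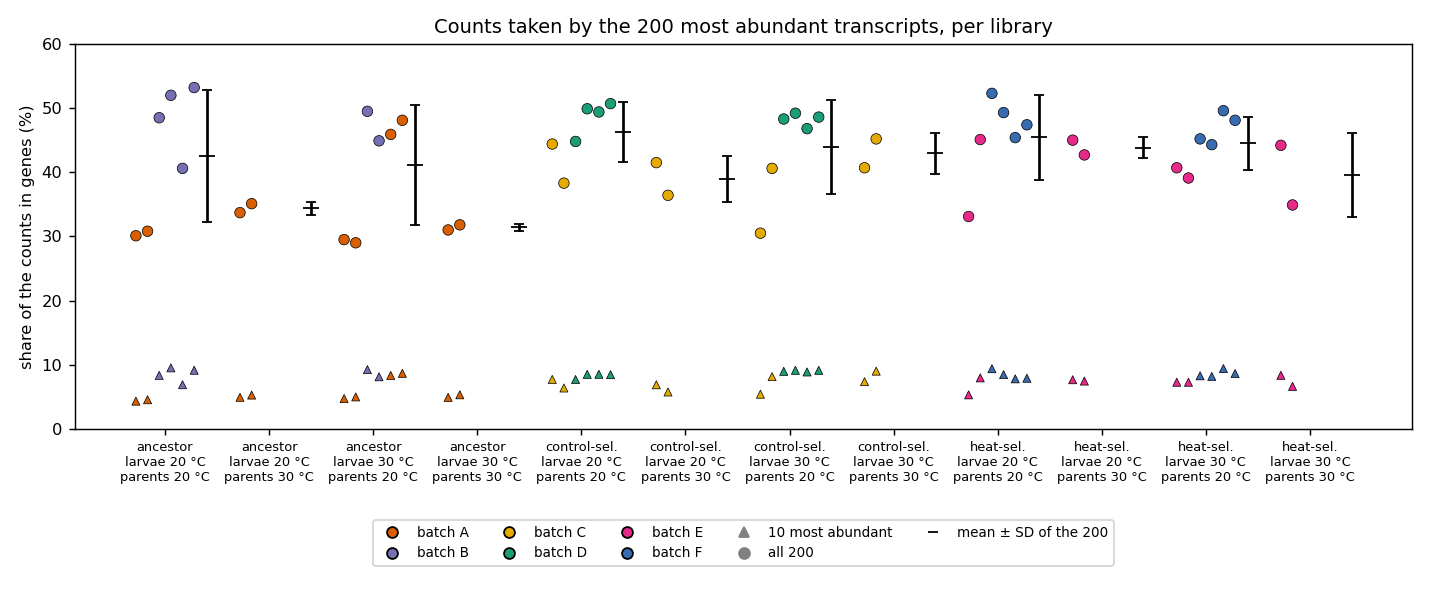
Share of the counts in genes (percent, vertical axis) of the 200 most abundant transcripts (circles) and of the first 10 (triangles) in each of the 48 libraries, in replicate order within the 12 groups and coloured by labelled batch. Bars give the mean and SD of the 200 per group (n = 6 or 2); batch A libraries lie at 29 to 35.1% except for replicates 5 and 6 of ancestor larvae at 30 °C.

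What the members shared beyond level was limited by the annotation. Gene models made by maker were 166 of the 200 (83%) against 67.4% of the 13460 genes tested. Models from augustus were 25 (12.5% against 19.1%) and those from snap 9 (4.5% against 13.6%). Numbered linkage groups held 90 members (45% against 47.2% of those tested), with 28 on linkage group 4, 26 on 1 and 14 on 2. Of the members, 155 (77.5%) matched a locus tag of the RefSeq annotation of another strain, CRPX506, as did 77.7% of the genes tested. By the order of those tags 3 pairs of members were direct neighbours.

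As a share of the counts in genes, the 200 differed more between batches than between temperatures. In ancestor larvae at 20 °C from unheated parents it was 30.1 and 30.8% in batch A and 48.5, 52.0, 40.6 and 53.2% in batch B. Control-selected larvae at 20 °C had 44.4 and 38.3% in batch C against 44.8 to 50.7% in D. Heat-selected larvae at 20 °C had 33.1 and 45.1% in batch E and 45.4 to 52.3% in batch F. In these 3 groups the earlier-lettered batch lay below the later one without overlap.

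At 30 °C the same held in the selected populations. Batch C gave 30.5 and 40.6% against 46.8 to 49.2% in batch D, and batch E gave 40.7 and 39.1% against 44.3 to 49.6% in batch F. The ancestor at 30 °C stood apart from this order. Its replicates 1 and 2 (29.5 and 29.0%) were low, but replicates 5 and 6, also labelled batch A, had 45.9 and 48.1% and lay with the batch B replicates 3 and 4 (49.5 and 44.9%). The order of the batches held only with counts in genes as the denominator. As a share of all reads in the file, ancestor larvae at 20 °C had 19.6 and 21.2% in batch A and 21 to 28.3% in B, and control-selected larvae at 20 °C had 19.7 and 23.3% in C and 22 to 24.4% in D. Heat-selected larvae at 20 °C had 18.1 and 22.9% in E and 15.4 to 20.1% in F. On that scale the batches overlapped in each of these groups and in both selected populations at 30 °C.

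By larval temperature, the share was 42.5% ± 10.3 (SD, n = 6) at 20 °C and 41.1% ± 9.38 at 30 °C in the ancestor. It was 46.3% ± 4.74 and 44% ± 7.31 in the control-selected and 45.4% ± 6.6 and 44.5% ± 4.09 in the heat-selected population. The differences of means, −1.39, −2.28 and −0.95 percentage points, were smaller than the SD within groups, and the ranges overlapped in every population. With the 200 chosen by the mean of group medians the differences were 1.33, −0.93 and 3.02, so the direction turned in the ancestor and the heat-selected population. Within single batches the differences were 7.65 (A), −1.35 (B), −5.79 (C), −0.52 (D), 0.76 (E) and −1.8 (F) percentage points. Without replicates 5 and 6 at 30 °C the ancestor difference was −4.31.

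Libraries of heated parents had 33.7 and 35.1% (20 °C) and 31 and 31.8% (30 °C) in the ancestor, all in batch A. These lay just above replicates 1 and 2 of batch A from unheated parents. The control-selected population gave 41.5 and 36.4%, then 40.7 and 45.2%. The heat-selected population gave 45.0 and 42.7%, then 44.2 and 34.9%. In both selected populations these values lay within or near the range of batches C and E.

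**Figure D2:**
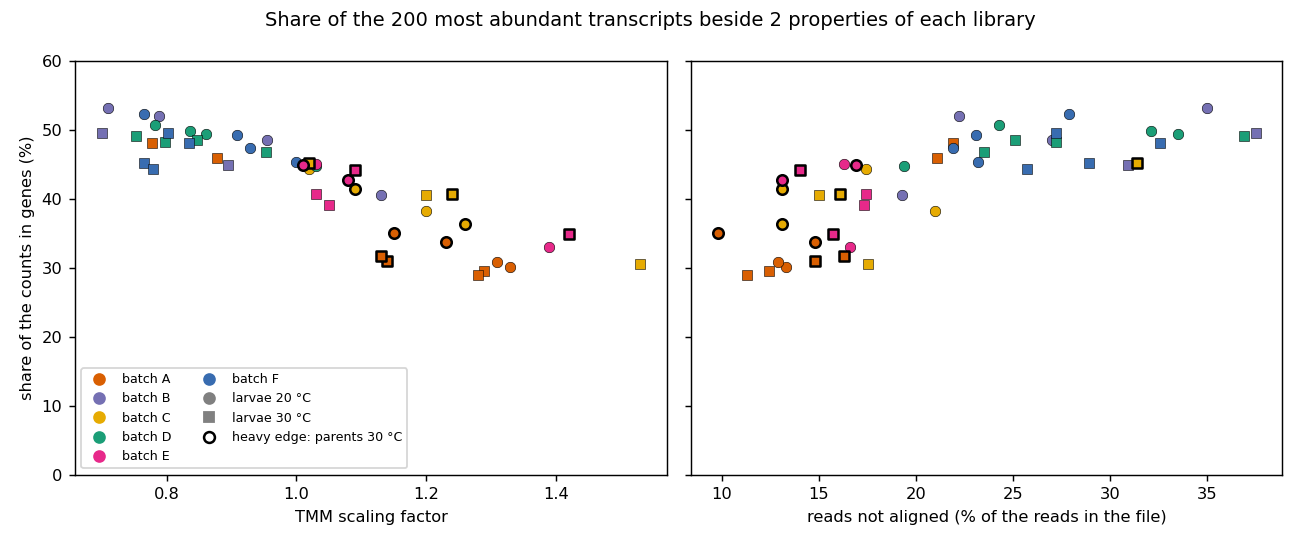
Share of the 200 in each library (percent of counts in genes, vertical axis) against the TMM scaling factor (left, 0.7 to 1.53) and the percent of reads not aligned (right, 9.77 to 37.5), coloured by batch, with squares for larvae at 30 °C and heavy edges for heated parents. Libraries with a high share lie at low scaling factors, which are computed from the same counts, and mostly at high percentages of reads not aligned.

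The scaling factor, from 0.7 to 1.53, was lower where the share was higher. It is computed from the same counts, so it is not a separate property of the library. Reads not aligned, from 9.77 to 37.5% of a library, mostly rose with the share, and their part in it was not tested. Reads outside genes, from 8.03 to 47.1%, did not follow it: the library with 41.1% outside genes had a share of 31%, and libraries with 11.1 and 40% outside genes had shares of 49.5 and 49.3%.

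Members moved up and down together within groups. In log2 CPM centred on the group means, the first component held 84.5% of the variance of the 200, and the next held 4.2 and 3.46%. This centring left the batch differences in place. In ancestor larvae at 20 °C from unheated parents, batch A scored −14.8 and −13.4 on the first component. Batch B scored from −1.73 to 13.5. The first component held 69.2% for the next 200 ranks and 34.2% for all genes tested. Of the members 191 had a weight of one sign and 9 of the other. In 25 of the 48 libraries at least 180 of the 200 lay on one side of their group means, and in 36 at least 160 did. In groups of 2 libraries the deviations mirror each other, so such libraries enter these counts as pairs. The within-group SD of log2 CPM had a median of 0.62 over the members and 0.58 over all genes tested.

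CRE_PX356_1510 had one of the largest spreads among the members, an SD of 1.4 in log2 CPM over the 48 libraries. In ancestor larvae at 20 °C its level was 502 and 537 CPM in batch A and 5490, 6270, 2580 and 10000 CPM in batch B. At 30 °C, replicates 1 and 2 had 445 and 448 CPM, replicates 3 and 4 had 8040 and 5030, and the last 2 had 2440 and 2800. The low and high libraries did not overlap, and they were the same libraries that had a low and a high share. At the other end, CRE_PX356_1923 had the smallest spread, an SD of 0.2. It ranged from 895 to 1280 CPM in ancestor larvae at 20 °C and from 963 to 1310 CPM at 30 °C. CRE29928 (0.21) and CRE03978 (0.29) were the next most even, and CRE04918 (1.56) and CRE16483 (1.26) were the other members among the 3 with the largest spread, followed closely by CRE16236 (1.24).

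The batch terms of the fit were counted among the members after the data were seen. A gene was called when edgeR's quasi-likelihood test gave a Benjamini-Hochberg adjusted p under 0.05 over the 13460 genes tested, which included all 200 members. Batch B against A in the ancestor called 155 members, 151 higher and 4 lower in B, where 48.4% of all genes tested were called, 23.2% higher and 25.2% lower. Batch D against C called 134, all higher, against 25.6% of all genes (12.4% higher). Batch F against E called 81, of which 77 were higher, against 28.5% of all genes (14.1% higher and 14.4% lower). Median log2 fold changes of the members were 0.99, 0.88 and 0.66, with −0.06, −0.04 and −0.04 over all genes tested.

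Of the members 59 were called higher in B, D and F alike, and 23 were called in no batch term. The matching shares of all genes tested were not computed, so these counts are a description only. No member could be lower in all 3, since the same edgeR test called 4, 0 and 4 lower in the single terms. CRE_PX356_1510 was among the 2 with the largest batch differences in each population, with log2 fold changes of 2.85 ± 0.47 (SE) for B over A, 1.78 ± 0.46 for D over C and 1.86 ± 0.45 for F over E. From edgeR's quasi-likelihood test its adjusted p was 1.5e-05, 0.0068 and 0.003. The share of genes called higher fell with rank. In the ancestor the median log2 difference of B over A was 0.44 in the next 200 ranks and −0.21 in a bin of 4000 genes further down. The direction thus changed along the scale of abundance.

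**Figure D3:**
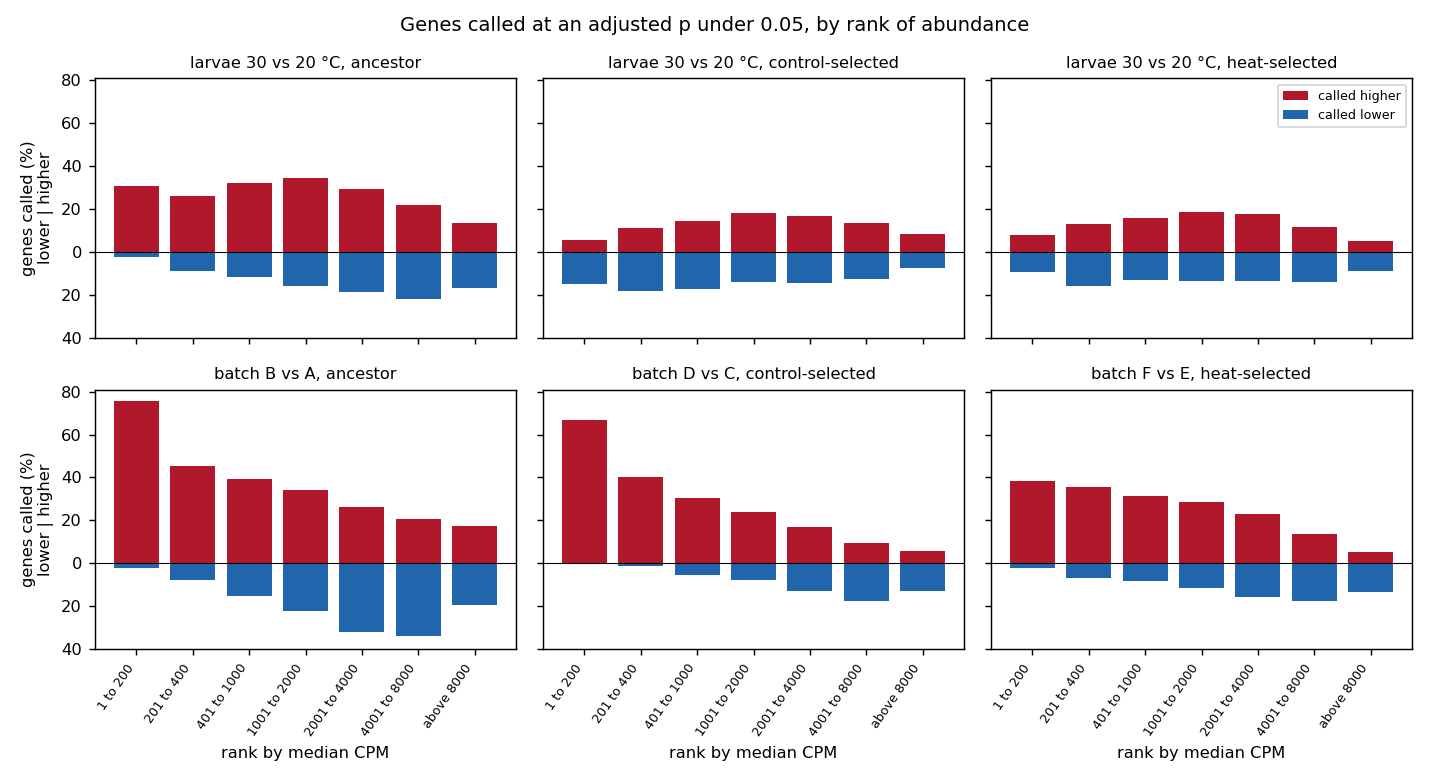
Percent of genes called higher (red, upward) and lower (blue, downward) at an adjusted p under 0.05 by edgeR, in bins of rank by median CPM, for the larval temperature comparisons (upper row) and the batch terms (lower row) of the 3 populations. In the batch terms 75.5, 67 and 38.5% of ranks 1 to 200 were called higher, more than in any later bin.

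The effect of larval temperature was tested in larvae of unheated parents, in one fit of all 48 libraries with the labelled batch as a term. Incubation lasted 20 h at both temperatures, and the developmental stage reached was not compared. In the ancestor 67 of the 200 were called (33.5%), 62 higher and 5 lower at 30 °C, where 39% of all genes tested were called, 21.2% higher and 17.9% lower. In control-selected larvae 41 were called (20.5% against 23.4% of all genes), 11 higher and 30 lower (12.2 and 11.2% of all genes). In heat-selected larvae 35 were called (17.5% against 22.3%), 16 higher and 19 lower (10.7 and 11.6%). With TMM the share of members called was below that of all genes tested in each population. This depended on the scaling. With total counts it was above that of all genes in both selected populations. Scaled to the summed counts of the 200 it was above in every population. Of the ancestor's calls, 62 of 67 were higher at 30 °C.

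The median log2 fold change of the members was 0.56 (ancestor), −0.08 (control-selected) and 0.11 (heat-selected), with 0.02 over all genes tested in each. In the ancestor 173 of 200 members had a positive fold change, against 82 of the control-selected and 123 of the heat-selected fold changes.

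The ancestor median depended on how replicates 5 and 6 at 30 °C were treated. These 2 libraries are labelled batch A but had shares like batch B. With the ancestor's batches set by replicate number (1 and 2 as A, 3 to 6 as B), 41 members were called, 21 higher and 20 lower, with a median of 0.04, where 37.2% of all genes were called. Without the pair, 38 were called, 19 higher and 19 lower, with a median of 0.08 (31.9% of all genes). Batch B alone gave a median of 0.05 with 5 members called (12.8% of all genes), and batch A alone, which holds both kinds of library at 30 °C, gave 0.97 with 1 called (0.906%). Leaving out 1 library gave from 24 calls (without replicate 1 at 20 °C) to 95 (without replicate 4 at 30 °C), with 26 without replicate 2 and 43 without replicate 5 at 20 °C and 42 without replicate 5 or 6 at 30 °C.

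Other choices moved the counts by over 1.5 times in all 3 populations or in both selected ones. Without a batch term 16, 15 and 11 members were called in the ancestor, control-selected and heat-selected larvae (22.1, 15.3 and 14.4% of all genes). With consecutive replicates summed in pairs, 13 members were called in the ancestor, 6 in control-selected and 1 in heat-selected larvae, where 17, 5.37 and 5.07% of all genes were called. Scaled to total counts, 62 were called in control-selected and 58 in heat-selected larvae (20.3 and 20.8% of all genes). The heat-selected split became 17 higher and 41 lower. All genes leaned the same way there, with 6.1% called higher and 14.7% lower. The ancestor's split on that scale was 42 higher and 23 lower, where 12.7% of all genes were called higher and 25.1% lower. The median of all genes tested was −0.27 in the ancestor, 0.05 in control-selected and −0.16 in heat-selected larvae. The heat-selected count was 21 without replicate 1 at 30 °C and 22 without replicate 2 at either temperature.

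**Figure D4:**
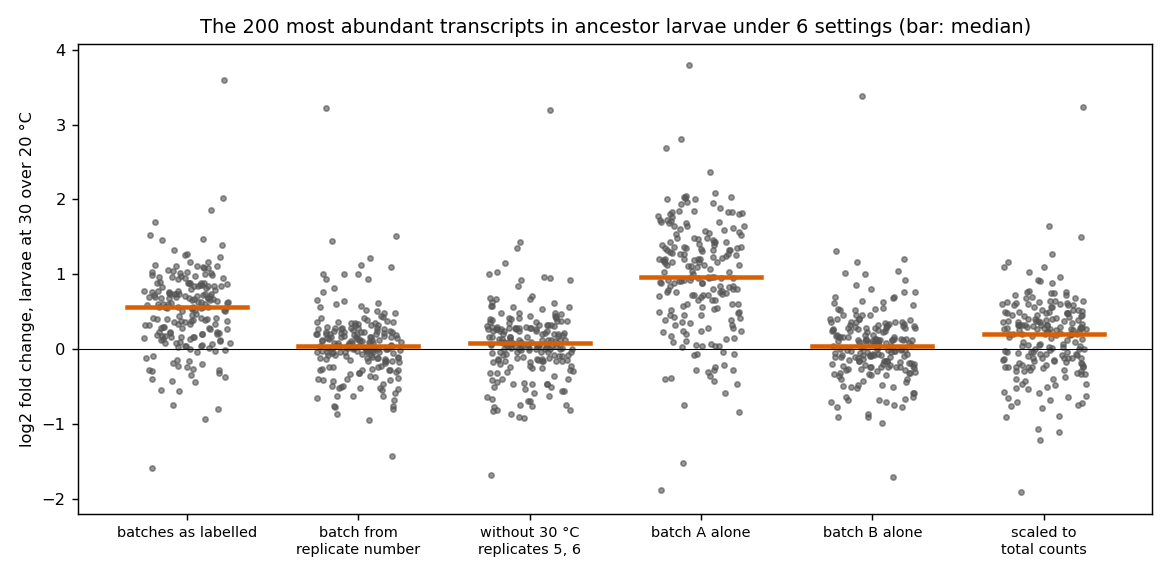
Log2 fold change at 30 over 20 °C (vertical axis) of each of the 200 transcripts (points) in ancestor larvae of unheated parents, under 6 settings, with the median as a bar. The medians are 0.56 with the labelled batches, 0.04 with batches from the replicate number, 0.08 without replicates 5 and 6 at 30 °C, 0.97 in batch A, 0.05 in batch B and 0.21 with total counts.

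Of the 200, 11 were called in all 3 populations, 8 higher and 3 lower at 30 °C each time, where 10.7% of all genes tested were called in all 3 (5.51% higher and 5.19% lower). Another 22 were called in exactly 2 populations, 66 in exactly 1 and 101 in none. The matching shares of all genes were not computed, so these counts are a description only. Called members did not change sign between populations among the 11.

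CRE04918 had the largest rise in every population. In ancestor larvae it ranged from 403 to 1100 CPM at 20 °C (median 633) and from 3020 to 9750 CPM at 30 °C (median 7520). The groups did not overlap. The log2 fold change was 3.6 ± 0.41 (SE) with an adjusted p of 1.1e-08 by edgeR's quasi-likelihood test.

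In control-selected larvae CRE04918 ranged from 504 to 912 CPM at 20 °C. At 30 °C its replicates in order gave 843, 1380, 9240, 10000, 1860 and 2100 CPM. Consecutive replicates were close and the pairs were far apart, and the lowest library at 30 °C lay within the range at 20 °C. The log2 fold change was 2.34 ± 0.38 (adjusted p = 1.5e-05, edgeR's quasi-likelihood test). In heat-selected larvae the gene ranged from 549 to 2550 CPM at 20 °C and stood at 5390, 4640, 13200, 13400, 4820 and 4730 CPM at 30 °C, without overlap. The log2 fold change there was 2.61 ± 0.37 (adjusted p = 1.8e-06, the same test).

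Larvae of heated parents added a further pattern for CRE04918. At 30 °C it stood at 3780 and 4330 CPM in the ancestor. That was just above replicates 1 and 2 of the same batch from unheated parents (3020 and 3160). It was below replicates 5 and 6, which carry the same batch label. In the heat-selected population it stood at 1480 and 774 CPM, below the 5390 and 4640 CPM of batch E from unheated parents. These differences were not tested separately.

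CRE31098 was the other member named for its rise in all 3 populations. It ranged from 474 to 1930 CPM at 20 °C and from 1300 to 5440 CPM at 30 °C in the ancestor, and these ranges overlapped. Within batch A the values were 474 and 508 CPM at 20 °C and 1350, 1300, 4670 and 5440 CPM at 30 °C. Within batches A and B the temperatures did not overlap. The log2 fold changes were 2.02 ± 0.35, 1.38 ± 0.3 and 1.21 ± 0.29 in ancestor larvae, in control-selected and in heat-selected larvae, at Benjamini-Hochberg adjusted p of 1.8e-05, 0.00061 and 0.0023 from edgeR's quasi-likelihood test. With pairs summed the calls were lost in both selected populations (log2 fold changes 1.4 and 1.28).

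CRE27021 was lower at 30 °C in all 3 populations. In the ancestor it ranged from 6270 to 8860 CPM at 20 °C (median 7080) and from 1940 to 3340 CPM at 30 °C (median 2630), with no overlap. In control-selected larvae it ranged from 3980 to 7370 CPM and from 934 to 3750 CPM. In heat-selected larvae it ranged from 2760 to 5300 CPM and stood at 1020, 823, 682, 632, 2670 and 2440 CPM at 30 °C. Among larvae of unheated parents, every library at 30 °C lay below every library at 20 °C of its population. The log2 fold changes were −1.59 ± 0.29, −1.43 ± 0.27 and −1.33 ± 0.28, at Benjamini-Hochberg adjusted p of 4.4e-05, 0.00015 and 0.00047 from edgeR's quasi-likelihood test, and the heat-selected call was lost with pairs summed (−1.31).

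CRE02248 was also lower at 30 °C in all 3 populations, without overlap in larvae of unheated parents. Its medians were 2820 and 1560 CPM in the ancestor, 3200 and 1100 CPM in the control-selected and 2290 and 1470 CPM in the heat-selected population. The lowest library at 20 °C had 1980, 2580 and 1790 CPM and the highest at 30 °C 1800, 1320 and 1610 CPM. The log2 fold changes were −0.8 ± 0.18, −1.5 ± 0.17 and −0.72 ± 0.17, at Benjamini-Hochberg adjusted p of 0.00046, 9.3e-09 and 0.0014 from edgeR's quasi-likelihood test.

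**Figure D5:**
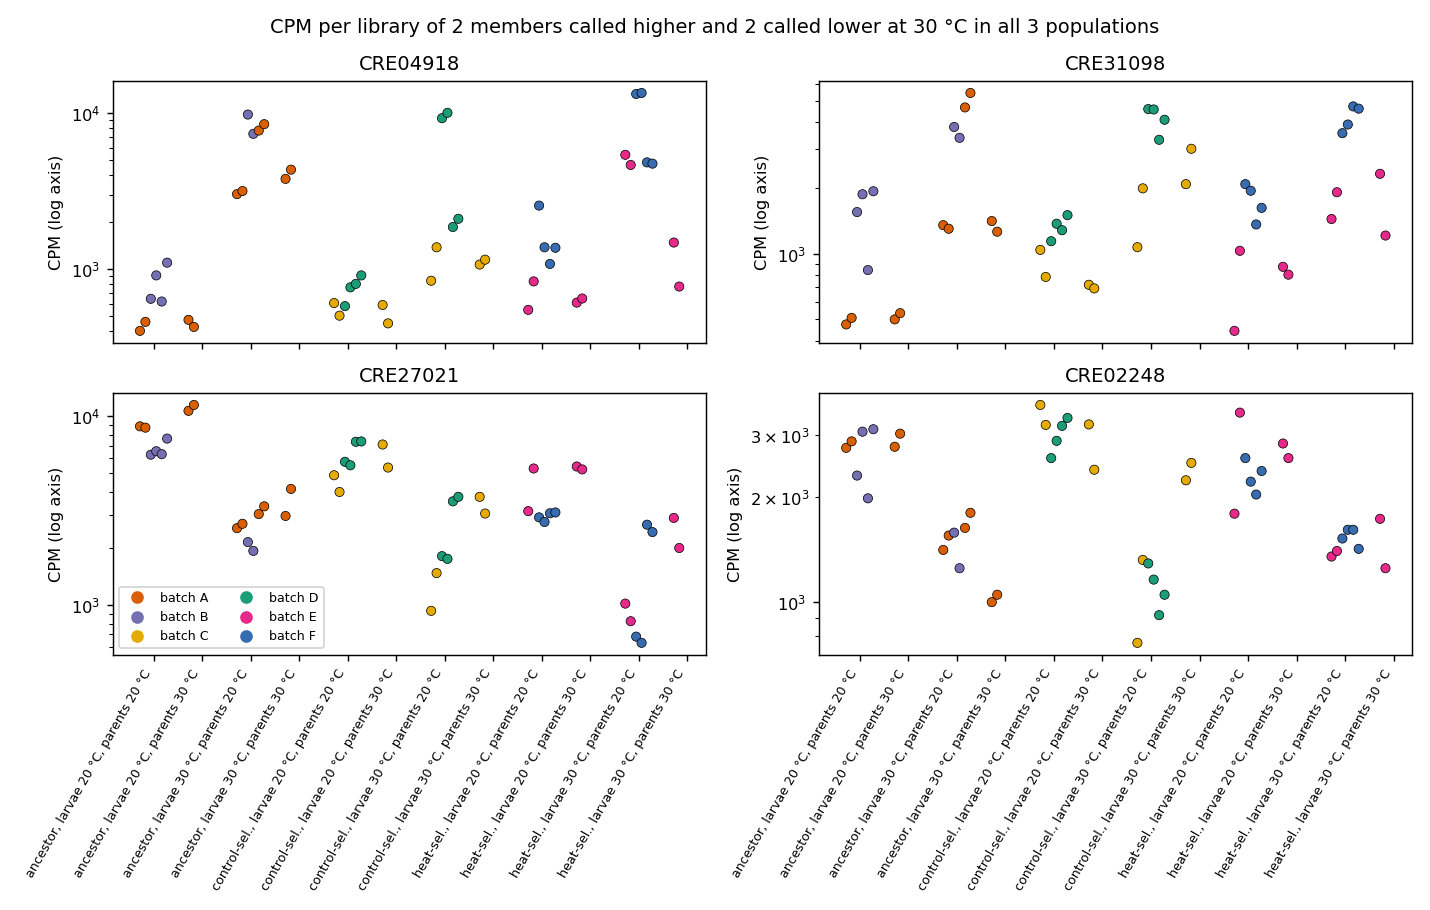
CPM per library (vertical log axis) of CRE04918 and CRE31098, called higher at 30 °C in all 3 populations, and of CRE27021 and CRE02248, called lower, in replicate order within the 12 groups and coloured by batch. CRE27021 and CRE02248 do not overlap between larval temperatures in larvae of unheated parents, and the consecutive replicates of CRE04918 at 30 °C lie in pairs.

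CRE19083 was named for its fall in 2 populations, and it fell in different batches. In ancestor larvae it stood at 3850 and 3630 CPM at 20 °C in batch A against 1070, 1210, 754 and 861 CPM at 30 °C. In batch B it had 1320 to 1430 CPM at 20 °C and 1470 and 1230 CPM at 30 °C, where the log2 fold change within the batch was −0.03. In heat-selected larvae batch E had 1300 and 1880 CPM at 20 °C and 1380 and 1290 CPM at 30 °C, while batch F had 834 to 1060 CPM and 298 to 384 CPM. The change was thus large in one batch of each population and small in the other. The fitted log2 fold changes were −0.93 ± 0.23 (adjusted p = 0.0015) and −1.13 ± 0.24 (adjusted p = 5e-04) by edgeR's quasi-likelihood test, and both calls were lost with pairs summed (−0.92 and −1.1).

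CRE31438 had the largest fall in control-selected larvae. Its replicates gave 3420, 1600, 2920, 5730, 3600 and 5140 CPM at 20 °C and 374, 554, 1720, 2360, 1170 and 1510 CPM at 30 °C. The temperatures overlapped over all libraries but not within batch C or batch D. The log2 fold change was −1.68 ± 0.26 (adjusted p = 7.1e-06, edgeR's quasi-likelihood test). In the ancestor it was −0.12 ± 0.27 (adjusted p = 0.75, the same test).

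Because the members shared most of their variation within groups, their changes were also computed relative to each other, with the summed counts of the 200 as the library size. This setting was added after the data were seen. It called 76 members in the ancestor (41 higher, 35 lower). In the control-selected population it called 64 (27 and 37) and in the heat-selected one 63 (24 and 39). Of all genes tested 30, 15.1 and 15.1% were called. These were 9.09, 10.5 and 5.12% higher and 20.9, 4.64 and 9.99% lower. The median of all genes tested was −0.36, 0.13 and −0.16. In all 3 populations 36 members were called in one direction, 17 higher and 19 lower, and 9 of the 11 called in all 3 with TMM were among them. With this library size rises and falls of members must offset each other in summed counts. The split between higher and lower members is therefore bound by the scaling. The share of all genes called in all 3 on this scale was not computed.

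On this relative scale CRE04918 had log2 fold changes of 3.09, 2.38 and 2.51 in the ancestor, control-selected and heat-selected populations. CRE27021 had −2, −1.3 and −1.49, and CRE31098 had 1.48, 1.47 and 1.12. CRE31473, the member with the highest median, had 0.47, 0.36 and 0.41, at Benjamini-Hochberg adjusted p of 2.4e-05, 0.00033 and 6.7e-05 from edgeR's quasi-likelihood test. With TMM it had 0.99 ± 0.31 (adjusted p = 0.011), 0.27 ± 0.27 (0.51) and 0.51 ± 0.27 (0.18) in the same test. With TMM the ancestor value was 0.43 with batches from the replicate number, 0.48 without replicates 5 and 6 at 30 °C and 0.46 in batch B alone.

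The larval responses of the populations were compared as differences of fold changes. Between heat-selected and ancestor none of the 200 was called by edgeR (0.453% of all genes). At an unadjusted p under 0.05 there were 17 (1465 of the 13460 genes tested), and DESeq2 called 1 and limma-voom 0. Between heat-selected and control-selected edgeR called none (0.223% of all genes). There were 9 at an unadjusted p under 0.05 (956 of all genes tested), with 4 called by DESeq2 and 2 by limma-voom. Between control-selected and ancestor 2 members were called, both with a lower response in the control-selected population, where 0.869% of all genes were called, 0.438% lower. At an unadjusted p under 0.05 there were 66 for this difference (2239 of all genes tested), and DESeq2 called 10 and limma-voom 4.

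These 2 members were CRE01791 and CRE31438. CRE01791 had replicates of 815, 866, 2410, 3390, 1670 and 4610 CPM at 20 °C and 718, 744, 4270, 2470, 1960 and 2500 CPM at 30 °C in the ancestor. In control-selected larvae it had 2930, 1340, 2650, 5080, 3960 and 4640 CPM, then 363, 707, 2390, 3200, 1710 and 2140 CPM. In the ancestor replicates 1 and 2 stood apart at both temperatures, and in control-selected larvae the libraries at 30 °C were lower within batch C and overlapped those at 20 °C within batch D. The difference in log2 response was −1.7 ± 0.44 for CRE01791 (adjusted p = 0.048) and −1.56 ± 0.37 for CRE31438 (adjusted p = 0.029) by edgeR's quasi-likelihood test. Neither was called with ancestor batches from the replicate number (−1.05 and −1.04) or without replicates 5 and 6 at 30 °C (−1.19 and −1.22). The count was 0 to 7 with 1 library left out, and it moved for 21 of 24 libraries.

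Parental temperature was compared as the mean effect over both larval temperatures, with the labelled batch as a term. In the ancestor 3 members were called, 2 higher and 1 lower with parents at 30 °C, where 3.86% of all genes tested were called (2.97% higher and 0.892% lower). In the heat-selected population 10 were called, all lower, where 5.54% of all genes were called, 2.77% lower. In the control-selected population edgeR called none (0.156% of all genes). There were 5 at an unadjusted p under 0.05 (816 of the 13460 genes tested), with 1 called by DESeq2 and 0 by limma-voom. With pairs summed no member was called in any of these comparisons. The ancestor count was 0 or 1 without either heated-parent library at 20 °C or the second one at 30 °C, and 6 without replicate 6 of unheated parents at 30 °C. The heat-selected count was 3 to 5 without either heated-parent library at 20 °C, the second one at 30 °C, or replicate 1 or 2 of unheated parents at 30 °C. The medians over the members were −0.23, 0.15 and 0.09 in the ancestor, control-selected and heat-selected population, with −0.04, −0.02 and 0.01 over all genes, and the ancestor median was 0.33 with batches from the replicate number. The ancestor count was larger under other settings. It was 9 with batches from the replicate number (3.9% of all genes) and 9 without replicates 5 and 6 at 30 °C (3.91%). It was 7 with DESeq2, 10 with total counts (3.63% of all genes), 15 scaled to the 200 (1.94%) and 73 without a batch term (19.6%).

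CRE16236 had the largest parental difference in the heat-selected population. In batch E at 20 °C it stood at 486 and 1090 CPM with parents at 20 °C and at 787 and 767 CPM with parents at 30 °C. At 30 °C it stood at 3170 and 3090 CPM with parents at 20 °C and at 377 and 208 CPM with parents at 30 °C. The difference thus lay in the larvae kept at 30 °C. Averaged over larval temperatures the log2 fold change was −1.83 ± 0.36 (adjusted p = 0.0013, edgeR's quasi-likelihood test). In ancestor larvae at 20 °C of batch A the same transcript was higher with heated parents, at 2520 and 2620 CPM against 520 and 541 CPM. Averaged over both larval temperatures, its parental effect was not called in the ancestor.

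CRE29866 was the other member named for a parental fall in the heat-selected population. At 30 °C in batch E it had 2880 and 2650 CPM with parents at 20 °C and 644 and 1080 CPM with parents at 30 °C. At 20 °C it had 1330 and 1090 CPM against 667 and 663 CPM. Heated parents went with lower values at both larval temperatures, without overlap. The log2 fold change was −1.32 ± 0.24 (adjusted p = 0.00054, edgeR's quasi-likelihood test).

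In the ancestor the 3 called members were CRE01886, CRE18679 and CRE02045. CRE18679 had 4170 and 4010 CPM at 20 °C in replicates 1 and 2 of unheated parents and 5770 and 7180 CPM with heated parents, and at 30 °C 2830 and 3020 CPM against 4900 and 3960 CPM. CRE02045 had 1880 and 2010 CPM against 1370 and 1350 CPM at 20 °C, and at 30 °C 1020 and 1100 CPM in replicates 1 and 2 and 2790 and 3340 CPM in replicates 5 and 6 against 982 and 638 CPM. The fall of CRE02045 at 30 °C was large only against replicates 5 and 6. Log2 fold changes were 0.71 ± 0.21 for CRE01886, 0.69 ± 0.17 for CRE18679 and −1 ± 0.29 for CRE02045. From edgeR's quasi-likelihood test their adjusted p was 0.043, 0.011 and 0.042, and CRE02045 was not called with batches from the replicate number (−0.41).

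Between populations the parental effect differed in 11 members for heat-selected against ancestor, 2 higher and 9 lower, where 8.34% of all genes were called (3.95% higher and 4.39% lower). It differed in 3 for control-selected against ancestor, 1 higher and 2 lower (1.13% of all genes, 0.275% higher and 0.854% lower). For heat-selected against control-selected edgeR called none (0.0297% of all genes). There were 7 at an unadjusted p under 0.05 (945 of the 13460 genes tested), with 0 called by DESeq2. None of these calls was made with pairs summed, where the share of all genes called was not computed. The control-selected count was 1 without any one of 6 libraries: replicate 5 of ancestor larvae at 30 °C, either ancestor or control-selected library of heated parents at 20 °C, or the second control-selected one at 30 °C.

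The largest difference between heat-selected and ancestor was that of CRE16236, −2.83 ± 0.49 (adjusted p = 0.00011, edgeR's quasi-likelihood test). CRE19083 differed by −2.08 ± 0.38 (adjusted p = 0.00029, the same test). In ancestor larvae of heated parents CRE19083 had 4240 and 4080 CPM at 20 °C and 2280 and 2140 CPM at 30 °C, and in heat-selected larvae 526 and 616 CPM, then 823 and 544 CPM. Among the increases CRE14242 differed by 1.62 ± 0.52 (adjusted p = 0.045) and CRE02045 by 1.41 ± 0.42 (adjusted p = 0.03) in the same edgeR test. Both were lost with ancestor batches from the replicate number (0.74 and 0.82).

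For control-selected against ancestor, CRE02045 differed by 1.6 ± 0.42, CRE19083 by −1.49 ± 0.38 and CRE18679 by −1.26 ± 0.25. From edgeR's quasi-likelihood test their adjusted p was 0.047, 0.037 and 0.0041. The first 2 were not called with ancestor batches from the replicate number (1.02 and −1.23).

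Few differences between populations were called, among the members as among all genes tested. They were tested in larvae of unheated parents without a batch term, since each batch holds 1 population and the batch and the population cannot be told apart. At 20 °C edgeR called none for heat-selected against ancestor (0.788% of all genes), none for control-selected against ancestor (0.223%) and 1 for heat-selected against control-selected, higher in the former (0.617%, with 0.461% higher). At 30 °C it called none (1.13%), none (1.35%) and 1, also higher (1.41%, with 0.691% higher). At an unadjusted p under 0.05 there were 11, 6 and 10 members at 20 °C and 10, 6 and 11 at 30 °C. Over the 13460 genes tested there were 1603, 1275 and 803 at 20 °C and 2066, 1921 and 1382 at 30 °C. DESeq2 called 1 and 2 members in the comparisons with the ancestor at 20 °C and 2 and 2 at 30 °C, and limma-voom called 2 for heat-selected against ancestor at 30 °C.

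CRE18679 was higher in the heat-selected population than in the control-selected one at 20 °C. It ranged from 2240 to 3680 CPM in the first and from 1230 to 2410 CPM in the second, and the ranges overlapped. The log2 fold change was 0.81 ± 0.19 (adjusted p = 0.019, edgeR's quasi-likelihood test). CRE19715 was higher in heat-selected larvae at 30 °C, with 2550, 2440, 2250, 2250, 697 and 662 CPM against 629, 578, 1220, 1210, 618 and 551 CPM. Replicates 5 and 6 of the heat-selected population lay within the control-selected range. The log2 fold change was 1.17 ± 0.26 (adjusted p = 0.0086, edgeR's quasi-likelihood test), and neither gene was called with counts summed per batch or with pairs summed.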

How the data were processed

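Read counts per gene model were deposited by the authors, 1 file per library. The submitters' processing notes name GSNAP (2013-03-31) for alignment and HTSeq for counting. No genome build is given in the sources used here, and identifiers carry the strain name PX356. Strandedness is not stated, so overlapping or antisense genes may share reads. The prefix CRE_PX356_ is dropped before a CRE number.

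Levels are CPM, computed from the counts with edgeR 4.0.16 (R 4.3.3) and TMM on 24723 gene rows. The 5 categories of reads outside genes were left out of library sizes. Tests used edgeR's quasi-likelihood fit of 12 groups on 48 libraries after filterByExpr with a minimum count of 10, which kept 13460 genes. Labelled batch was a term within populations and absent between them. There were 18 comparisons and 3 batch terms, each Benjamini-Hochberg adjusted over all genes tested, with calls at 0.05. DESeq2 1.42.0 and limma 3.58.1 were alternatives. Their counts of members are given without the share of all genes, so they are not set against it. The procedure was also run on simulated data. These were drawn without batch differences or variation shared between genes, so that run does not cover such features.

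Members and lists were chosen with earlier results of these data known. Named transcripts are the first 10 and the 4 at the edge by level, the 3 with most and 3 with least spread, and up to 2 higher and 2 lower per comparison. CRE31473 and CRE_PX356_1510 in the tests, and 2 genes outside the 200, were chosen after their values were seen. Without gene names for the identifiers, no list of genes by function was run.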

Additional observations from a re-analysis of the deposited data

Results flagged for a closer look

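Among 192 sets of 6 libraries (the share and the named members in each group of 6), 7 had a library far from the others by the gap to its nearest neighbour (Dixon's 95% value). Chance flags about 1 in 20 such groups. The share of the 200 in heat-selected larvae at 20 °C had its lowest library at 33.1%, with the next at 45.1%. CRE27021 had its highest library there at 5300 CPM (next 3150), CRE03978 at 1610 CPM (next 1170) and CRE_PX356_1923 at 1380 CPM (next 1040). In heat-selected larvae at 30 °C CRE_PX356_1923 had its highest at 1320 CPM (next 985). The lowest library of CRE29928 in ancestor larvae at 20 °C was 1040 CPM (next 1190), and that of CRE04842 in control-selected larvae at 30 °C was 3510 CPM (next 4860).

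Tested differences between populations included 7 of the named members. The larval response in control-selected minus ancestor larvae was −1.7 for CRE01791 and −1.56 for CRE31438 on the log2 scale. The parental effect in heat-selected minus ancestor larvae was 1.62 for CRE14242, 1.41 for CRE02045, −2.83 for CRE16236 and −2.08 for CRE19083. In control-selected minus ancestor larvae it was 1.6 for CRE02045, −1.49 for CRE19083 and −1.26 for CRE18679.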

How the results depend on the processing

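The values here are counts of called members that moved by over 1.5 times under another setting. Shares of all genes are left out here, so these counts are not set against them. No called result reversed. With the ancestor batches from the replicate number the counts were 41 for the ancestor's larval effect, 0 and 2 for the larval differences control-selected minus ancestor and heat-selected minus control-selected, 9 for the ancestor's parental effect and 5 for the parental difference control-selected minus ancestor. Without ancestor replicates 5 and 6 at 30 °C they were 38, 0, 9 and 5 for the same results apart from the second difference, and 1 for control-selected minus ancestor at 30 °C. Without a batch term they were 16, 15 and 11 (larval), 0 (difference control-selected minus ancestor), 73 and 2 (parental, ancestor and control-selected) and 8 (parental difference control-selected minus ancestor). Single batches gave 1 (A), 5 (B), 13 (C) and 6 (E). Pairs summed gave 13, 6 and 1 (larval) and 0 for each other result with a call. Total counts gave 62 and 58 (larval, selected populations), 6 and 3 (larval differences), 10, 7 and 24 (parental, ancestor and differences from it) and 1 to 3 (populations). Scaled to the 200 they were 64 and 63, 5 and 1, 15 and 19 (parental, ancestor and heat-selected), 9 and 22, and 1, 2, 5, 1 and 3 (populations). DESeq2 gave 10, 1 and 4 (larval differences), 7 and 1 (parental, ancestor and control-selected) and 1 or 2 in 5 population comparisons. Limma-voom gave 4, 2 and 2 (larval differences control-selected minus ancestor and heat-selected minus control-selected, and heat-selected minus ancestor at 30 °C). No filter gave 7, 2 and 0 (the same differences, and heat-selected minus control-selected at 20 °C). Summing counts per batch or taking batch as a random block gave 0 for both population differences with a call. The cause was not tested.

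The replicate block gave 35 for the ancestor's larval effect, 0 for the larval difference control-selected minus ancestor, 8 for the ancestor's parental effect and 2, 3, 6, 4, 2 and 6 for the population comparisons. Of 18 pairs across larval temperatures, 13 correlated above 0.1 (from −0.0413 to 0.797) and 8 correlated best with their own number. Since not every pair passed 0.1 and the labels state no pairing, the libraries were taken as unpaired; the 8 matches are a hint from the data, not the design.

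Leaving out 1 library gave 24 (without ancestor replicate 1 at 20 °C) to 95 (without ancestor replicate 4 at 30 °C) for the ancestor's larval effect, 32 to 37 for the control-selected and 21 to 31 for the heat-selected population. Parental effects gave 0 to 6, 0 and 3 to 11, their differences from the ancestor 8 to 14 (heat-selected) and 1 to 3 (control-selected), larval differences 0, 0 to 7 and 0 to 3, and population differences 0 to 3. The call for CRE18679 at 20 °C was lost without control-selected replicate 1 or 2 or heat-selected replicate 3, 5 or 6, and heat-selected minus ancestor at 30 °C had 3 calls without heat-selected replicate 5 or 6. The median share was 32.8% for the first 100, 56.2% for the first 400, 43% without CRE31473 and 21.5% of all reads in the file. Of the 200, 194 were also chosen by total counts and 188 by group medians, and with the latter the larval differences in share were 1.33, −0.93 and 3.02 percentage points.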
